A study of Mus musculus with 6 samples.

Results

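The 78 nuclear genes with a mitochondrial ribosomal protein symbol were followed in mouse liver with and without LKB1. They were selected by symbol alone, as every gene of the deposited table named Mrpl or Mrps with a number and, in some cases, a letter, with pseudogenes left out. Of the 55450 genes in the table, 49 were Mrpl genes (large subunit) and 29 were Mrps genes (small subunit), and all 78 passed the filter on low counts that left 14539 genes for testing. Poly(A) RNA was sequenced from the left liver lobe of 6 mice of the strain labelled C57BL/J, all 10 weeks old, with 1 library per mouse. The knockout group (KO, n = 3) carried LKB1 fl/fl alleles, in which loxP sites flank part of the LKB1 gene (Stk11). The control group (WT, n = 3) was wild type. Both groups had received AAV8 Cre, an adeno-associated virus that delivers the Cre recombinase, at 6 weeks of age and were killed 4 weeks later, so virus and Cre were common to the controls. The promoter driving Cre was not given in the labels.

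Mitochondria hold their own ribosome, which translates the few mRNAs of the mitochondrial genome into core subunits of the respiratory chain and of ATP synthase. Its ribosomal RNAs are transcribed inside the organelle, whereas all its proteins are encoded in the nucleus, made on cytosolic ribosomes and imported. Some of these proteins descend from bacterial ribosomal proteins and the rest were acquired in the mitochondrial lineage. LKB1 is a kinase that activates AMPK and related kinases. Hepatocytes are rich in mitochondria.

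Total counts per library ran from 47659122 to 56147667, and the 78 genes together took between 86925 and 135961 counts per library, with no single value under 41.9. Stk11 was at 22.1, 14.4 and 11.4 CPM (counts scaled to a common library size) in KO 1, 2 and 3 and at 66.1, 64.2 and 69.7 CPM in WT 1, 2 and 3 (log2 fold change -2.06 ± 0.247 SE, edgeR adjusted p = 0.0167, which became 0.0607 to 0.104 without KO 2, KO 3, WT 2 or WT 3). Replicate 1 of each group stood apart from the other libraries. KO 1 and WT 1 held 42472 and 29243 counts of Xist, the RNA of the inactive X chromosome, and next to no counts of Y-linked genes, whereas the other 4 libraries held 6146 to 8199 Y-linked counts. The comparison of the 78 genes is therefore also given without this pair. Hepatocyte markers were present in all 6 libraries, but their summed level was 27039 to 70636 CPM in KO and 77716 to 117918 CPM in WT. Gene by gene, the median over the 8 hepatocyte markers was -0.08 on the log2 scale, and edgeR called 1 higher and 0 lower. The 8 endothelial markers summed to 83.0 to 135.7 CPM in KO and 159.3 to 215.3 CPM in WT. The part of these shifts in the results was not tested, and in bulk tissue fewer cells of a type and less RNA per cell cannot be told apart.

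Transcripts of mitochondrial ribosomal proteins were mostly somewhat higher in KO than in WT, by small amounts. A log2 fold change above 0 was found in 73 of the 78 genes, against 51.0% of all genes tested, and the median was 0.29 (interquartile range 0.16 to 0.48), against 0.01 over all genes tested (-0.34 to 0.33). With the threshold at an adjusted p of 0.05 over all genes, 3 of 78 rose and 0 fell by edgeR. That share of 3.85% stands near the background of 2.15% of all genes tested that were called higher, 1.22% called lower and 3.37% called either way. The other fits differed in their counts. DESeq2 called 17 of 78 higher and 0 lower (8.77% of all genes were called higher), edgeR with a term for the Xist state called 13 and 0 (5.36%), and limma voom called 2 and 0 (1.75%). At an unadjusted p under 0.05, 32 of 78 were higher (41.0%, against 14.6% of all genes) and 0 were lower (against 11.7%). All 3 KO libraries were above all 3 WT libraries in 37 genes (47.4%, against 16.9% of all genes), and all 3 were below in 1 gene, Mrpl2 (against 15.5%). The plot of all 78 changes shows a shift of the group with few genes past the threshold.

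**Figure D1:**
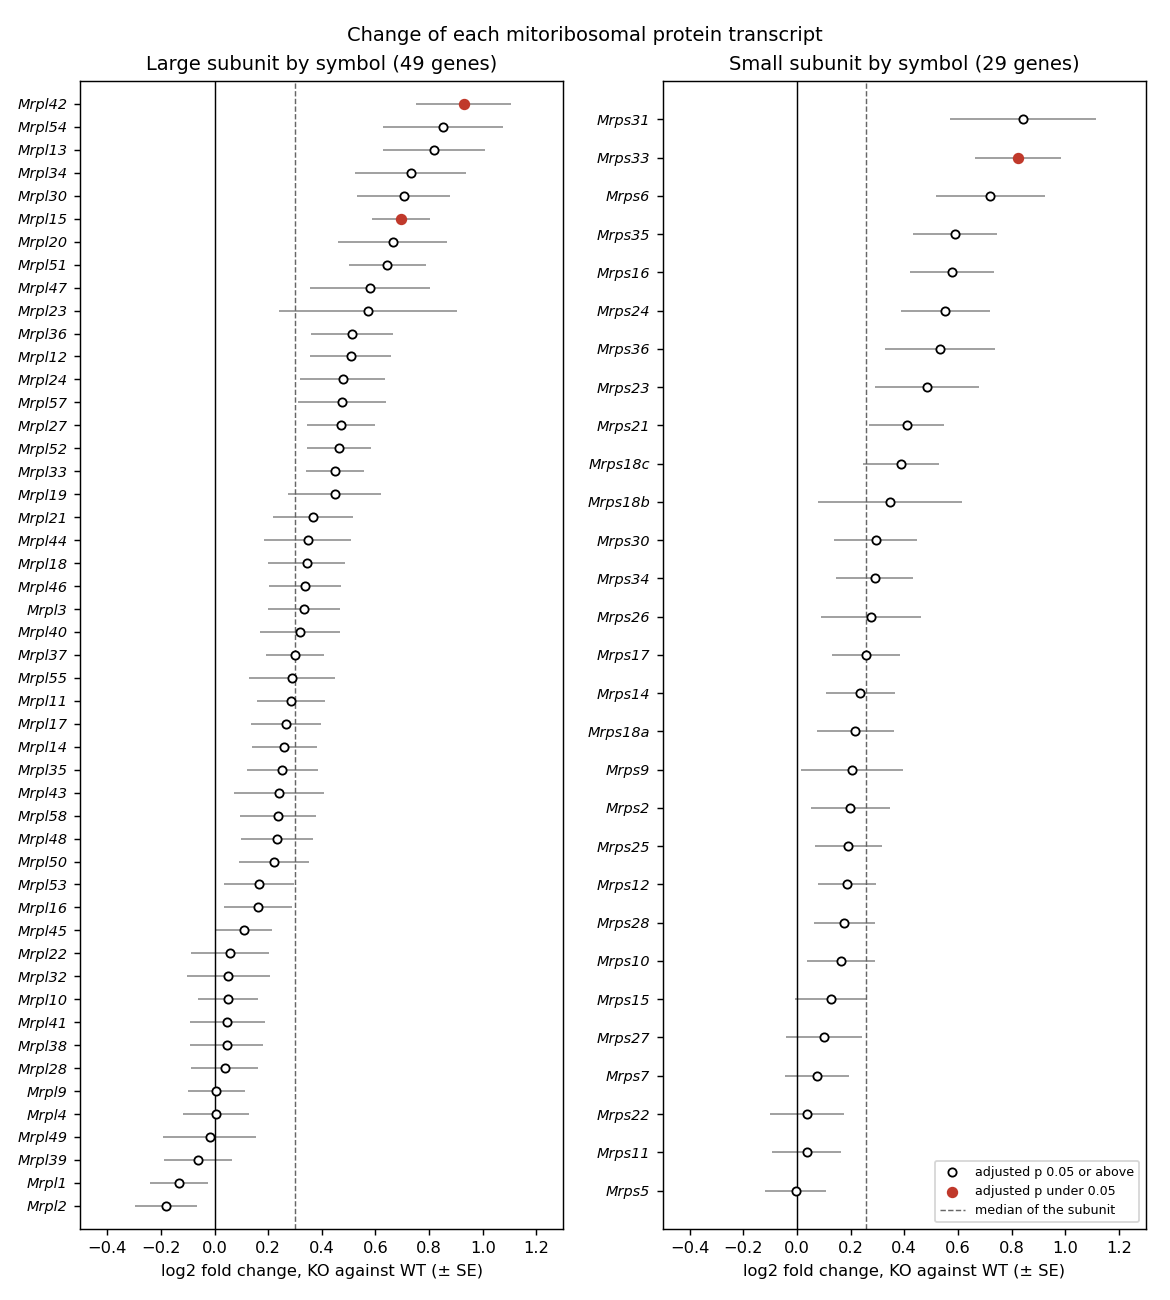
Log2 fold change of KO against WT for each of the 78 genes, with bars of 1 SE (n = 3 mice per group), ordered within each subunit; filled red points mark an adjusted p under 0.05 and the dashed line marks the subunit's median. Mrpl42 leads the large subunit at 0.93 and Mrpl2 is lowest at -0.18, and 3 of the 78 points are filled.

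The 3 genes that rose belong to both subunits. Mrpl15 encodes a large-subunit protein with a bacterial counterpart and lies on chromosome 1 at 4773206 to 4785739, minus strand, in build GRCm38. It was at 66.6, 68.1 and 74.9 CPM in KO 1, 2 and 3 and at 42.3, 43.2 and 44.1 CPM in WT 1, 2 and 3. The groups did not overlap, and KO 1 was close to the other KO libraries. The log2 fold change was 0.69 ± 0.108 (SE; adjusted p = 0.0301). Mrpl42 encodes a large-subunit protein specific to mitochondria and lies on chromosome 10 at 95480805 to 95501940, minus strand. Its level was 45.5, 53.1 and 71.1 CPM in KO and 29.2, 29.9 and 30.0 CPM in WT. Again no KO library reached down to the WT range, and KO 3 was the highest (log2 fold change 0.93 ± 0.177, adjusted p = 0.0448). Mrps33, a small-subunit gene on chromosome 6 at 39801804 to 39810988, minus strand, was at 27.0, 36.1 and 39.7 CPM in KO and at 18.7, 19.5 and 19.9 CPM in WT. KO 1 was the lowest KO library but lay above all WT libraries (log2 fold change 0.82 ± 0.160, adjusted p = 0.0464). These calls were lost without any 1 library other than KO 1, in fits that also called fewer of all genes higher. Leaving out KO 2, KO 3, WT 1, WT 2 or WT 3 gave 0 calls among the 78 genes by edgeR. In that order, these fits called 0.484%, 0.207%, 1.02%, 0.0334% and 0.113% of all genes higher, against 2.15% with all libraries. The adjusted p of these 3 genes was then between 0.0683 and 0.211. Leaving out KO 1 gave 44 called higher, in a fit that called 16.0% of all genes higher.

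**Figure D2:**
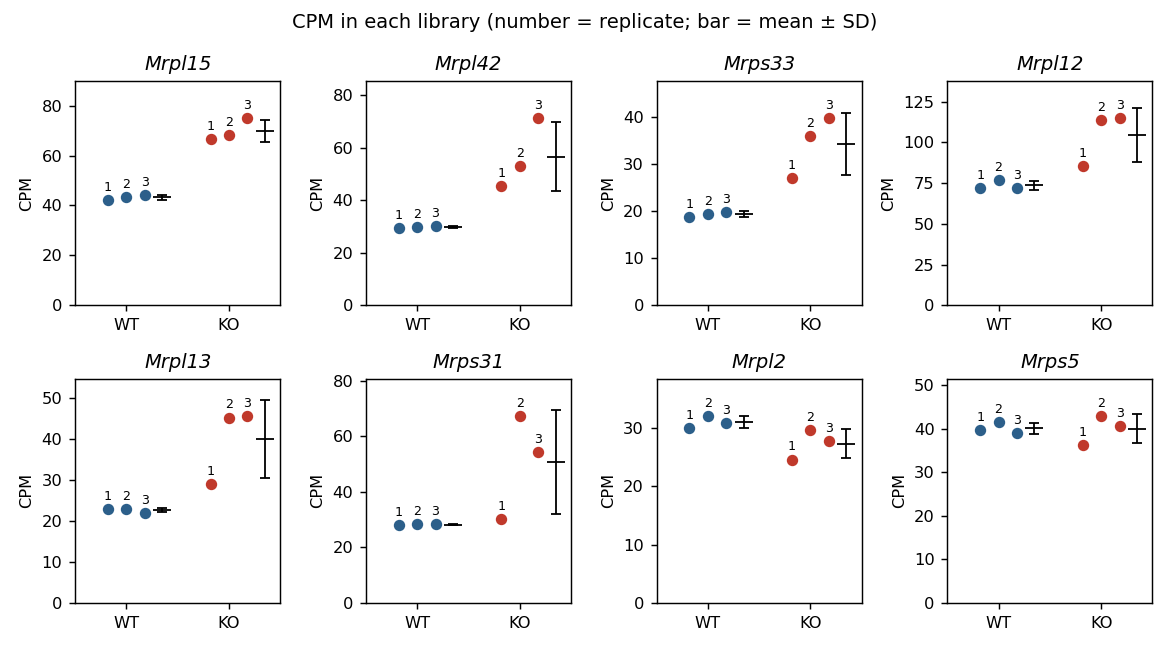
CPM of 8 genes in each of the 6 libraries, with replicate numbers over the points and a bar for the mean ± SD of each group (n = 3). Mrpl15, Mrpl42 and Mrps33 rose without overlap between groups, Mrpl12, Mrpl13 and Mrps31 have KO 1 nearest to the WT libraries, and Mrps5 overlaps between groups.

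In the large subunit, 45 of 49 genes had a log2 fold change above 0, with a median of 0.30 (interquartile range 0.11 to 0.48). After Mrpl42, the largest values belonged to Mrpl54, Mrpl13, Mrpl34 and Mrpl30, none of which passed the threshold. Mrpl54, specific to mitochondria, was at 11.3, 19.2 and 16.5 CPM in KO and 7.35, 9.84 and 8.81 CPM in WT (log2 fold change 0.85 ± 0.223, adjusted p = 0.078). Mrpl13, whose product has a bacterial counterpart, was at 28.8, 45.1 and 45.5 CPM in KO and 22.97, 22.8 and 22.0 CPM in WT (0.82 ± 0.189, adjusted p = 0.064). In both genes the groups did not overlap and KO 1 was the lowest KO library. Mrpl34 gave 16.2, 17.0 and 24.5 CPM in KO and 9.72, 11.5 and 13.5 CPM in WT (log2 fold change 0.73 ± 0.207, adjusted p = 0.0912). Mrpl30 gave 42.6, 64.6 and 59.7 CPM in KO and 31.7, 35.6 and 35.1 CPM in WT (0.70 ± 0.174, adjusted p = 0.0719). Both encode bacterial-type proteins, and both separated the groups.

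Mrpl12 encodes the protein of the flexible stalk that recruits translation factors to the ribosome. It was at 85.6, 113.8 and 114.8 CPM in KO and at 72.1, 76.9 and 72.0 CPM in WT, with means of 104.7 ± 16.5 and 73.6 ± 2.81 CPM (SD, n = 3 each). The groups did not overlap, but the log2 fold change of 0.51 ± 0.152 did not pass (adjusted p = 0.0995). Mrpl24, among the most abundant of the large-subunit transcripts per library, was at 49.0, 69.9 and 67.8 CPM in KO and 43.5, 46.1 and 44.5 CPM in WT (0.48 ± 0.158, adjusted p = 0.122). Mrpl58 encodes a peptidyl-tRNA hydrolase that was built into the large subunit and can release stalled chains. Its values of 17.2, 22.9 and 21.8 CPM in KO and 18.6, 16.9 and 17.1 CPM in WT overlapped through KO 1 (0.24 ± 0.142, adjusted p = 0.33).

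At the other end stood Mrpl2, Mrpl1 and Mrpl39. Mrpl2 encodes a conserved protein near the peptidyl transferase centre and was at 24.6, 29.7 and 27.7 CPM in KO and 30.0, 32.1 and 31.0 CPM in WT. All KO libraries were below all WT libraries by a small margin, and the difference did not pass (log2 fold change -0.18 ± 0.115, adjusted p = 0.353). Mrpl1, which encodes the protein of the other stalk, was at 24.9, 24.5 and 27.8 CPM in KO and 27.7, 29.6 and 27.4 CPM in WT, and the groups overlapped (-0.13, adjusted p = 0.465). Mrpl39 overlapped as well, with 28.6, 26.5 and 33.5 CPM in KO and 31.1, 32.0 and 29.3 CPM in WT (-0.06, adjusted p = 0.789). The counts of Mrpl23 were uncertain, because its pseudogene Mrpl23-ps1 was assigned more reads than the gene. Mrpl23 was at 1.58, 1.98 and 2.06 CPM in KO and 1.79, 1.08 and 0.898 CPM in WT, while Mrpl23-ps1 had 18.5, 21.5 and 20.3 CPM in KO and 15.6, 12.7 and 11.6 CPM in WT.

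In the small subunit, 28 of 29 genes had a log2 fold change above 0, with a median of 0.26 (interquartile range 0.18 to 0.48). The largest belonged to Mrps31, specific to mitochondria, at 30.3, 67.3 and 54.3 CPM in KO and 27.9, 28.5 and 28.3 CPM in WT. KO 2 and KO 3 were far above the WT range and KO 1 was just above it, and this spread within KO left the difference short of the threshold (log2 fold change 0.84 ± 0.272, adjusted p = 0.117). Mrps6, with a bacterial counterpart, was at 8.70, 12.0 and 13.3 CPM in KO and 6.70, 6.00 and 7.91 CPM in WT (0.72 ± 0.203, adjusted p = 0.0899). Mrps35 was at 25.6, 36.1 and 35.7 CPM in KO and 22.5, 21.7 and 20.6 CPM in WT (0.59 ± 0.158, adjusted p = 0.0811). Mrps16, another gene with a bacterial counterpart, was at 21.5, 27.9 and 30.9 CPM in KO and 17.2, 19.3 and 17.3 CPM in WT (0.58 ± 0.157, adjusted p = 0.084). None of these 4 overlapped between groups, and KO 1 was the lowest KO library in each.

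Mrps5, Mrps11 and Mrps22 had the smallest values of the small subunit, and their groups overlapped. Mrps5 was at 36.3, 42.9 and 40.7 CPM in KO and 39.7, 41.4 and 39.1 CPM in WT (adjusted p = 0.985). Mrps11 gave 9.57, 10.3 and 11.3 CPM in KO and 9.72, 10.1 and 10.6 CPM in WT (log2 fold change 0.04, adjusted p = 0.876). Mrps22 gave 16.9, 19.8 and 22.5 CPM in KO and 20.6, 18.8 and 18.3 CPM in WT (0.04, adjusted p = 0.882). Mrps7, which encodes a conserved protein of the small subunit's head and was among its 3 most abundant transcripts, overlapped too, at 47.6, 54.3 and 48.8 CPM in KO and 44.4, 47.3 and 51.4 CPM in WT (0.07, adjusted p = 0.717).

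For 3 Mrps genes the symbol does not match the place of the protein. The products of Mrps18a and Mrps30 sit in the large subunit, and Mrps36 encodes a protein of the oxoglutarate dehydrogenase complex. Mrps18a was at 21.3, 27.9 and 24.7 CPM in KO and 19.0, 21.4 and 23.1 CPM in WT (log2 fold change 0.22, adjusted p = 0.368), with overlap. Mrps30 was at 17.9, 25.4 and 22.8 CPM in KO and 16.7, 18.5 and 18.8 CPM in WT (0.29 ± 0.153, adjusted p = 0.272), with KO 1 inside the WT range. Mrps36 separated the groups, at 8.46, 10.8 and 14.3 CPM in KO and 7.41, 7.98 and 7.74 CPM in WT (0.53 ± 0.205, adjusted p = 0.162). Moving Mrps18a and Mrps30 to the large subunit gave it a median of 0.29 over 51 genes, and the small subunit without all 3 had a median of 0.25 over 26. The paralogues of Mrps18a stay in the small subunit. Mrps18c was at 17.4, 22.3 and 22.99 CPM in KO and 16.0, 16.9 and 15.1 CPM in WT without overlap (0.39 ± 0.142, adjusted p = 0.147), and Mrps18b at 30.8, 66.3 and 48.8 CPM in KO and 33.2, 41.0 and 40.6 CPM in WT, with KO 1 below all WT libraries (0.35 ± 0.270, adjusted p = 0.446).

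The subunits were compared by their summed transcripts in each library. Large-subunit genes summed to 1336, 1603 and 1653 CPM in KO 1, 2 and 3 and to 1182, 1237 and 1222 CPM in WT 1, 2 and 3. All KO sums were above the WT sums, and KO 1 was nearest to them. Small-subunit genes summed to 640, 845 and 821 CPM in KO and to 595, 625 and 637 CPM in WT, so that KO 1 was barely above WT 3. The large sum divided by the small sum was 2.09, 1.90 and 2.01 in KO and 1.99, 1.98 and 1.92 in WT, and these ratios overlapped. All 78 genes together came to 2299 ± 280 CPM in KO and 1833 ± 48.1 CPM in WT (SD, n = 3 each), a ratio of 1.25. With 3 mice per group, no exact test of a single sum can go below a two-sided p of 0.10.

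**Figure D3:**
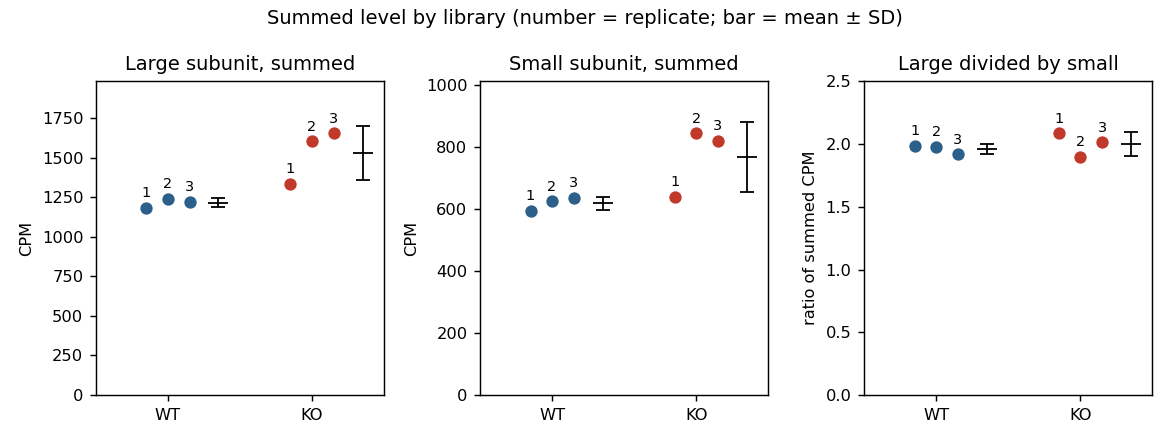
Summed CPM of the 49 large-subunit and the 29 small-subunit genes, and their ratio, in each library, with replicate numbers over the points and a bar for the mean ± SD (n = 3). KO 1 lies near the WT libraries in both sums, and the ratios of KO (1.90 to 2.09) and WT (1.92 to 1.99) overlap.

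The genes were also divided by a list of bacterial-type members, which held Mrps18c but not its paralogues Mrps18a and Mrps18b. The classes therefore do not follow descent in full. Those for bacterial-type proteins had a median log2 fold change of 0.34 in the large subunit (28 genes) and 0.20 in the small subunit (16 genes), and the others had 0.29 (21 genes) and 0.29 (13 genes). Over both subunits the medians were 0.26 for 44 bacterial-type genes and 0.29 for the other 34, with 24 (54.5%) and 13 (38.2%) genes whose KO libraries were all above the WT libraries, against 16.9% of all genes. The difference between these classes was not tested.

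Without the pair holding Xist counts, the shift was larger. In KO 2 and 3 against WT 2 and 3, 39 of 78 genes rose and 0 fell (over all genes, 17.2% were called higher, 16.1% lower and 33.3% either way in these libraries), 27 of the large and 12 of the small subunit, and the median log2 fold change was 0.38. In these libraries marker sums of other cells were lower in KO as well. Macrophage markers summed to 140 and 105 CPM in KO and 144 and 198 CPM in WT, stellate markers to 170 and 120 against 208 and 254, cholangiocyte markers to 28.3 and 39.5 against 48.8 and 56.7, and erythroid markers to 42.0 and 58.6 against 432 and 311. Lymphocyte markers overlapped, and the part of these shifts in the calls was not tested. Of the 78 genes, Mrpl13 reached 1.01 (adjusted p = 0.00186), Mrps31 1.09 (adjusted p = 0.00398), Mrpl54 0.93 (adjusted p = 0.00636) and Mrpl12 0.61 (adjusted p = 0.0117). In the single pair of KO 1 and WT 1, which has no replicate, the median log2 ratio was 0.13, with 58 genes above 0 and 20 below. Over all genes tested, the median of this pair was -0.02, with 6969 above 0 and 7569 below. The pair gave 0.65 for Mrpl15, 0.64 for Mrpl42 and 0.53 for Mrps33, but 0.12 for Mrps31, 0.33 for Mrpl13 and 0.00 for Mrpl47. In 53 genes both subsets were above 0, in 17 only the larger subset was, in 5 only the pair was, and in 3 neither was.

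KO 1 was the lowest of the KO libraries in 66 of 78 genes (84.6%, against 41.1% of all genes tested). The median of the 78 genes against the WT mean was 0.09 in KO 1, 0.41 in KO 2 and 0.35 in KO 3 on the log2 scale. Other values moved with that library: its Stk11 level was the highest of the KO libraries, and 8 cell cycle genes summed to 63.9 CPM in it. In the other 5 libraries that sum was between 4.33 and 9.58 CPM. Their part in the result was not tested. A term for a different change in the 2 subsets, whose spread comes from the other 4 libraries because KO 1 and WT 1 are single, passed the threshold in 0 of 78 genes by edgeR (2.9% of all genes passed), with the smallest adjusted p of 0.0968 for Mrpl47. At an unadjusted p under 0.05 it was met by 11 of 78, against 20.9% of all genes. Mrpl47 was at 11.2, 19.2 and 19.8 CPM in KO and 11.2, 11.2 and 11.1 CPM in WT, so KO 1 did not leave the WT range.

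**Figure D4:**
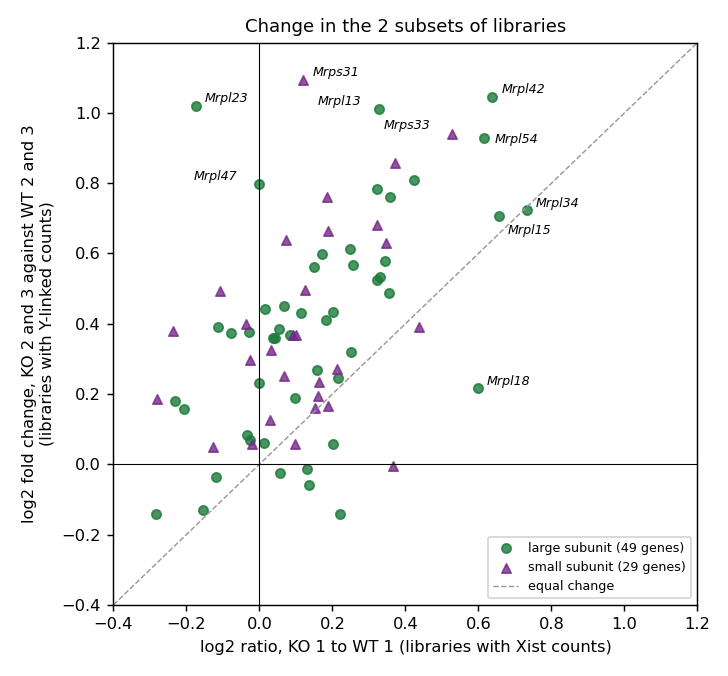
Log2 change of each of the 78 genes in the pair of libraries with Xist counts (KO 1 against WT 1, x axis) and in the other 4 libraries (KO 2 and 3 against WT 2 and 3, y axis), with circles for the large and triangles for the small subunit and a dashed line of equal change. In 67 of 78 genes the y value is the larger one, and Mrpl15 and Mrpl34 lie close to the line.

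Levels between genes were compared per kilobase of transcript. In WT the large-subunit genes had a median of 17.5 CPM per kilobase (1.82 to 56.0) and the small-subunit genes one of 16.1 (1.46 to 47.5). Mrpl12 was the highest at 56.0 CPM per kilobase, followed by Mrpl30 at 51.6 and Mrpl20 at 50.2, and Mrps21 led the small subunit at 47.5. Mrps25 and Mrpl23 were the lowest. In KO the medians were 23.9 for the large and 18.9 for the small subunit. Short transcripts had larger values of the log2 fold change. The median log2 fold change was 0.40 for the 30 genes under 1000 nt and 0.24 for the 48 longer ones, and the same held over all genes, with 0.24 under 1000 nt (1026 genes) and -0.02 above (12002 genes). Spearman's rho between length and log2 fold change was -0.26 over the 78 genes and -0.17 over 13028 genes, where genes share libraries and are not replicates. The part of length in the shift was not tested.

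The 78 genes are spread over 17 chromosomes, and 18 of them have another coding gene starting within 1000 bp in the opposite direction. In 42 the annotation has another gene overlapping on either strand, and since the use of strand in counting was not given in the sources used here, their counts may include reads of the neighbour. Mrpl42 and Mrps33 were not among these 42, whereas Mrpl15 overlaps another annotated gene. Pseudogene copies of at least 95% identity exist for 18 of the 78, but only those of Mrpl23 and Mrps33 were assigned more than 1% of the gene's own CPM (2.39% for Mrps33).

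Promoters were searched for letters bound by factors known to act on nuclear genes for mitochondrial proteins. The RefSeq promoter table for build GRCm38.p6 (250 bases before to 50 after the start) held 75 entries for 69 of the 78 genes. The NRF1 letters GCGCANGCG, searched on both strands like all others, were in 16 of the 75 entries (21.3%, against 6.25% of all 32851 entries). The ETS letters CCGGAAGT, bound by the Gabpa protein among others, were in 12 (16.0%, against 3.89%). The YY1 letters AAGATGGCG were in 8 (10.7%, against 1.40%) and the cyclic AMP element TGACGTCA in 2 (2.67%, against 1.79%). Matches of different motifs overlapped in 0 entries. By subunit, NRF1 letters were in 12 of 48 large-subunit and 4 of 27 small-subunit entries, and ETS letters in 8 and 4. The 27 genes with NRF1 or ETS letters had a median of 0.28 on the log2 scale, with 13 that separated the groups upward and 0 that passed the threshold by edgeR. The 42 genes with neither had 0.27, with 18 and 2. Of all genes tested, 16.9% separated the groups upward and 2.15% were called higher by edgeR. The difference between these 27 and 42 genes was not tested. The stretches shown run 5′ to 3′ on the gene's strand and hold no annotated exon. They belong to the genes that rose and had an entry, and to the 2 genes of each motif with the largest log2 fold change whose match lay in such a stretch, with the NRF1 or ETS letters in capitals. For Mrpl42 and Mrps33 neither motif was found, and the entry of Mrpl42 held the YY1 letters outside the stretch shown. The stretch of Mrpl48 belongs to a start inside the annotated gene, which spans 100545751 to 100608301 on chromosome 7.
Mrpl42, chr10:95501950-95502069, minus strand: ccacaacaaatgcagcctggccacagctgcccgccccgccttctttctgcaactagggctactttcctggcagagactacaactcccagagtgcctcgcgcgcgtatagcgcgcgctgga
Mrps33, chr6:39810989-39811108, minus strand: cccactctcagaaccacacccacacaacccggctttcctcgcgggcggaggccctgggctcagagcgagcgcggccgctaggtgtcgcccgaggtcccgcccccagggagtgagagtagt
Mrpl12, chr11:120484501-120484612, plus strand, NRF1 on the other strand: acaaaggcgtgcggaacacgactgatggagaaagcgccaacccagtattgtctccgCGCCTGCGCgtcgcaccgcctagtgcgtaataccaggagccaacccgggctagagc
Mrpl17, chr7:105811100-105811192, minus strand, NRF1: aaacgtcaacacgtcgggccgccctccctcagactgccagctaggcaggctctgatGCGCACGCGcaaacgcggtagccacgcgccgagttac
Mrpl43, chr19:45006443-45006557, minus strand, ETS: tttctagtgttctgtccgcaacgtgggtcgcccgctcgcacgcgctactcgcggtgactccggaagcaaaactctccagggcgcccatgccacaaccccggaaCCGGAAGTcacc
Mrpl48, chr7:100583131-100583221, minus strand, ETS on the other strand: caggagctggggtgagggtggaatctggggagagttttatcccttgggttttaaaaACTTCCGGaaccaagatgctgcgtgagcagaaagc

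The subunits of the mitochondrial ribosome that carry other symbols had values like those of the 78. Dap3, a small-subunit GTP-binding protein, was at 33.7, 41.2 and 36.9 CPM in KO and 28.7, 31.0 and 26.9 CPM in WT, without overlap (log2 fold change 0.37, adjusted p = 0.127). Ptcd3, an RNA-binding small-subunit protein, had 0.32 (adjusted p = 0.19), Chchd1 0.35 (adjusted p = 0.246), Aurkaip1 0.30 (adjusted p = 0.235) and Gadd45gip1 0.19 (adjusted p = 0.356). All 5 were above 0 and none passed the threshold by edgeR, DESeq2 or limma voom. Of all genes, these tools called 2.15%, 8.77% and 1.75% higher, and at such shares 5 genes are too few for 0 calls to be informative. At an unadjusted p under 0.05, 2 of the 5 were higher, against 14.6% of all genes.

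Genes that build and serve the mitochondrial ribosome had smaller medians. Over all genes tested, 14.6% were higher at an unadjusted p under 0.05, and edgeR called 2.15%, DESeq2 8.77% and voom 1.75% higher. None of 26 genes for assembly and rRNA modification passed by edgeR (median log2 fold change 0.14). At an unadjusted p under 0.05, 5 were higher (19.2%), and 4 were called higher by DESeq2 and 0 by voom. The 16 translation factors (median 0.14) and the 20 mitochondrial tRNA synthetases (median 0.09) had 0 calls by all 3 tools. At an unadjusted p under 0.05, 3 (18.8%) and 1 (5.0%) were higher. Tufm, the elongation factor that brings tRNAs to the ribosome, separated the groups at 111, 115 and 118 CPM in KO and 87.6, 100.1 and 102 CPM in WT, but did not pass (0.25, adjusted p = 0.257). The 16 genes of mitochondrial DNA transcription, replication and RNA stability had a median of 0.18 and 0 calls by edgeR. At an unadjusted p under 0.05, 2 were higher (12.5%), and 1 was called by DESeq2 and 0 by voom. Among these 16 genes were Tfam, which packages the mitochondrial genome, at 0.15 (adjusted p = 0.424) and the mitochondrial RNA polymerase Polrmt at 0.28 (adjusted p = 0.376).

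The RNA partners and products of this ribosome were measured too. The rRNA of the small subunit, mt-Rnr1, was at 594, 1423 and 1044 CPM in KO and 418, 570 and 523 CPM in WT, without overlap (log2 fold change 1.02 ± 0.332, adjusted p = 0.119). That of the large subunit, mt-Rnr2, was at 706, 1209 and 1275 CPM in KO and 532, 892.5 and 783 CPM in WT, with KO 1 inside the WT range (0.53, adjusted p = 0.312). Poly(A) selection captures these rRNAs only in part. The 13 mitochondrially encoded mRNAs all had values above 0, with a median of 0.52 and 0 calls by edgeR. At an unadjusted p under 0.05, 4 were higher (30.8%, against 14.6% of all genes). DESeq2 called 4 higher and voom 0, against 8.77% and 1.75% of all genes.

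Of 11 regulators of nuclear genes for mitochondria, 3 rose and 0 fell (27.3% higher, against 2.15% of all genes), with a median of 0.14. Ppargc1a, a coactivator of mitochondrial gene programmes, was at 24.7, 75.2 and 76.4 CPM in KO and 12.3, 5.75 and 4.28 CPM in WT (log2 fold change 2.98 ± 0.565, adjusted p = 0.0446). KO 1 was far below the other KO libraries and still above WT. Esrra, a nuclear receptor, was at 27.0, 64.2 and 48.3 CPM in KO and 14.3, 16.7 and 17.4 CPM in WT (1.53 ± 0.302, adjusted p = 0.048). Myc, a growth-related transcription factor, was at 11.6, 41.8 and 19.9 CPM in KO and 3.02, 2.04 and 2.14 CPM in WT (3.35 ± 0.489, adjusted p = 0.0258). Of the factors whose letters were searched, Nrf1 (0.15, adjusted p = 0.601) and Gabpa (0.14, adjusted p = 0.541) did not pass. Yy1, also in the list, was not among the 3 called either. No factor that binds the cyclic AMP element was in the list. Each call of this paragraph was lost in 4 or 5 of the 6 fits that left out 1 library: that of Ppargc1a without KO 2, KO 3, WT 2 or WT 3 (adjusted p 0.118 to 0.211), that of Myc without KO 3 or any WT library (0.0551 to 0.153), and that of Esrra without any library other than KO 1 (0.104 to 0.211). By voom, Myc (adjusted p = 0.0532) and Esrra (adjusted p = 0.0577) did not pass.

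Like the mitochondrially encoded mRNAs, nuclear respiratory chain genes, genes for import, chaperones and proteases, and cytosolic ribosomal protein genes had larger medians than the 78 genes. Of 79 tested nuclear genes for respiratory chain and ATP synthase subunits, 6 rose and 0 fell by edgeR (7.59% higher, against 2.15% of all genes), with a median log2 fold change of 0.68. DESeq2 called 61 of these higher and voom 6, in fits that called 8.77% and 1.75% of all genes higher. Among the 6 were Uqcr10 at 1.66 (adjusted p = 0.0261), Cox7a1 at 3.95 (adjusted p = 0.032), Atp5g1 at 1.29 (adjusted p = 0.0386), Atp5j2 at 1.05 (adjusted p = 0.0461) and Cox7b at 1.26 (adjusted p = 0.0467). Of 16 genes for import, chaperones and proteases, 1 rose by edgeR (6.25%, against 2.15% of all genes), and the median was 0.62. This was Timm50, part of the inner membrane translocase, at 0.51 (adjusted p = 0.0488). At an unadjusted p under 0.05, 14 of the 16 were higher (87.5%, against 14.6% of all genes). DESeq2 called 10 of the 16 higher and voom 0. Of 78 tested cytosolic ribosomal protein genes, Rpl13a rose by 0.99 (adjusted p = 0.0381) and Rpl36 by 0.89 (adjusted p = 0.0455), and the median was 0.43. These 2 of 78 (2.56%) were near the edgeR background of 2.15%. DESeq2 called 39 of the 78 higher and voom 3, against 8.77% and 1.75% of all genes. These 8 named genes also lost their calls without any 1 library other than KO 1 (adjusted p 0.068 to 0.224). The call of Timm50 was also lost by voom (adjusted p = 0.0543), with DESeq2 size factors (0.0515), with library size alone (0.0529) and with no filter (0.0767), and that of Cox7a1 by voom (0.102). The summed CPM of KO over WT was 1.70 for the respiratory chain, 1.34 for the cytosolic ribosome and 1.25 for the mitochondrial ribosome. Differences between these groups were not tested.

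**Figure D5:**
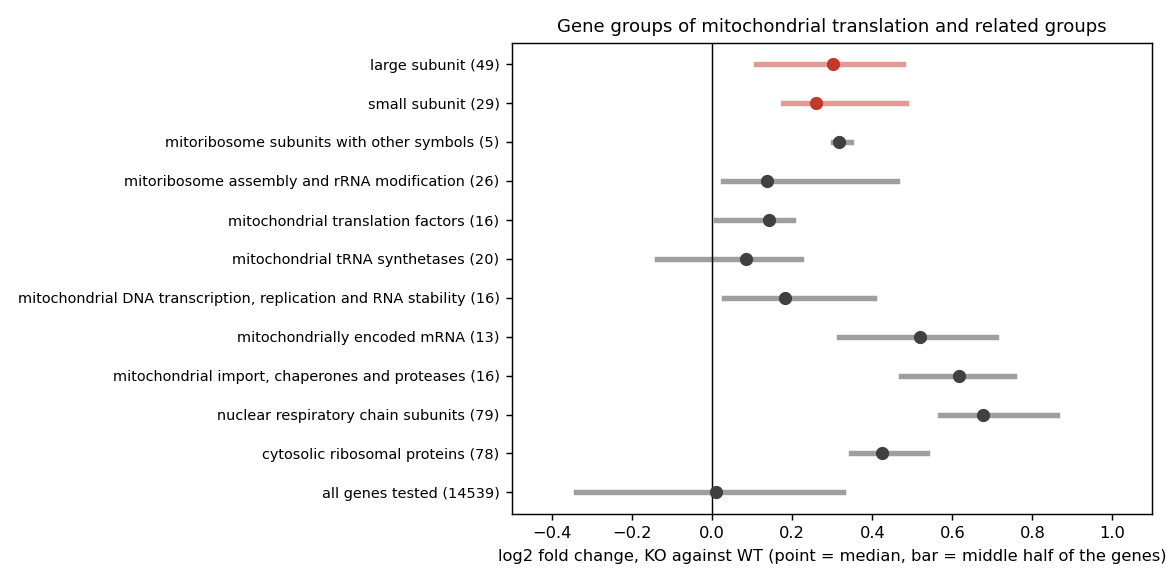
Median log2 fold change of KO against WT (points) and interquartile range (bars) of the mitochondrial ribosomal genes by subunit (red), of other gene groups (grey) and of all 14539 genes tested, with the number of genes tested in brackets. The subunits have medians of 0.30 and 0.26, between those of the respiratory chain (0.68) and of the mitochondrial tRNA synthetases (0.09).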

How the data were processed

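The authors deposited 1 table of expected counts for 55450 genes in 6 libraries, from paired reads of 76 nt. Per the submitters' processing notes, bcl2fastq 2.17, cutadapt 1.18, STAR 2.7.0f and RSEM 1.3.1 were used, with mm9 named as the build. All 55450 versioned identifiers were found in GENCODE M21 (GRCm38), from which positions were taken, so the build named and the identifiers differ. The 6 columns were matched to samples by the column name in each description.

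Expected counts were rounded to whole numbers and kept by filterByExpr (14539 genes). Groups were compared by the quasi-likelihood test of edgeR 4.0.16 with TMM scaling (R 4.3.3). The Benjamini-Hochberg adjustment covered all genes tested. The p-values set the difference between groups against the spread between mice. The SE is the size of the log2 fold change divided by the square root of F. CPM use TMM-scaled library sizes, and single-library log2 ratios add 0.1 CPM. A count of 3 equals 0.0515 to 0.0641 CPM. Lengths are medians over protein-coding transcripts. Pseudogene copies were found with blastn 2.17.0 over at least 200 nt. DESeq2 1.42.0, limma voom 3.58.1, other scalings, no filter, a replicate block and left-out libraries were alternatives.

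The genes and lists were chosen with earlier results of these data known. Named are the genes past the threshold (for other lists at most 5), in each subunit the 5 highest and 3 lowest log2 fold changes and 3 most abundant genes, Mrps18a, Mrps18b, Mrps18c, Mrps30, Mrps36, Mrpl12, Mrpl58, the subunits with other symbols, Tfam, Polrmt, Nrf1, Gabpa, Ppargc1a, Tufm, both mitochondrial rRNAs and Stk11. Mrpl17, Mrpl20, Mrpl23, Mrpl43, Mrpl47, Mrpl48, Mrps21 and Mrps25 were added after their values or sequences were seen. Motif letters were chosen with the data known, and those of NRF1 and YY1 were shortened by 1 letter after a first search. Summed markers of macrophages, stellate cells, cholangiocytes, lymphocytes and erythroid cells overlapped between groups over all 6 libraries.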

Additional observations from a re-analysis of the deposited data

Results flagged for a closer look

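The change of Ppargc1a, a coactivator of mitochondrial gene programmes, differed between the pair of libraries with Xist counts and the other 4 by an edgeR term for that difference (adjusted p = 0.0103). It was 3.91 on the log2 scale in KO 2 and 3 against WT 2 and 3 and 1.00 in the pair KO 1 and WT 1. The change of Cox7a1, a respiratory chain subunit, differed in the same way (adjusted p = 0.0256). The pair is 1 KO and 1 WT library, so the spread in this test comes from the other 4 libraries and the pair's own change has no replicate. Over all genes tested, 421 (2.9%) passed this test, and none of the 78 mitochondrial ribosomal genes did. At an unadjusted p under 0.05 it was met by 11 of the 78, against 20.9% of all genes.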

How the results depend on the processing

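The adjusted calls depended on the processing. The median log2 fold change kept its sign under all settings run, from 0.24 to 0.38 in the large and from 0.18 to 0.39 in the small subunit. Over all genes, the 490 calls became 771 with no filter, 2290 by DESeq2, 105 with the replicate block, 1504 with a term for Xist state and 4847 without KO 1 and WT 1, and ran from 6 (without WT 2) to 4473 (without KO 1) when 1 library was left out. The 3 mitochondrial ribosomal genes called higher became 17 by DESeq2, 0 with the replicate block, 13 with the Xist term and 39 without KO 1 and WT 1, and 0 to 44 when 1 library was left out. With voom 2 remained, since Mrps33 had an adjusted p of 0.0532. None was called lower under any of these settings. Same-numbered samples are different animals, and their deviations from the group means correlated at 0.162, 0.0304 and 0.0758, so the numbers were not taken as pairs. With the replicate block the adjusted p was 0.0807 for Mrpl15, 0.0818 for Mrpl42 and 0.0807 for Mrps33. Scaling by library size alone gave 380 genes called higher and 131 lower, against 313 and 177. Over the 78 genes, the number with a log2 fold change below 0 ran from 3 (library size alone) to 13 (without KO 3), against 5. Of the 50 genes chosen by the rule for naming, 4 changed sign, all near 0. That of Mrps5 was 0.043 with library size alone and 0.048 without KO 1 and WT 1, and ran from -0.052 to 0.054 when 1 library was left out. With 1 library left out, Mrpl39 ran from -0.16 to 0.018 (above 0 without KO 2), Mrps11 from -0.026 to 0.086 and Mrps22 from -0.066 to 0.13 (both below 0 without KO 3). The cause was not tested.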
